A study of Mus musculus with 6 samples.

Results

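Proximal T cell receptor signalling was followed through 9 genes, Lck, Zap70, Lat, Lcp2, Themis, Tespa1, Sla, Prkcq and Rasgrp1, which were taken by symbol from the 29626 genes of the deposited count table. All 9 were present in the table and all 9 passed the filter on low counts, which left 15353 genes. RNA had been sequenced from CD4+CD8+ double-positive thymocytes sorted from the thymus of mice aged 8 weeks. The 3 control mice carried the floxed Kansl1 gene and no Cre (Kansl1fl/fl, given as WT in the genotype field), and the 3 KANSL1-deficient mice carried the same floxed gene with Cre driven by the Cd4 gene (Kansl1fl/fl CD4-Cre). The KANSL1 protein belongs to the NSL complex with the histone acetyltransferase KAT8, and the comparison asked which transcripts differ between the genotypes at this stage. The controls carried no Cre, so an effect of Cre itself and one of Kansl1 loss cannot be told apart. Cre under Cd4 control becomes active around the double-positive stage.

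When a T cell receptor binds peptide and MHC, the kinase Lck phosphorylates the CD3 chains, the kinase Zap70 docks there and phosphorylates the scaffold Lat and the adaptor SLP-76, the product of Lcp2. The assembled complex activates phospholipase C-gamma, which releases calcium and supplies diacylglycerol, and diacylglycerol acts through protein kinase C-theta (Prkcq) and the Ras activator Rasgrp1. In double-positive thymocytes this signal is weak or strong depending on the ligand, and it decides between death by neglect, positive selection and negative selection. Themis and Tespa1 are proteins of the T lineage needed for positive selection, and Sla encodes the adaptor SLAP, which with the ubiquitin ligase Cbl lowers the amount of receptor on double-positive cells.

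The 6 libraries held 19361968 to 22459830 counts each, and no library looked like a copy of another. Kansl1 itself stood at 214, 189 and 230.1 CPM (counts relative to library size, scaled by TMM) in the controls and 146, 168 and 188 CPM in the KANSL1-deficient libraries, each in the order of replicates 1 to 3. The log2 fold change was -0.33 ± 0.14 (standard error, SE) and did not pass (adjusted p = 0.171 by edgeR's quasi-likelihood test), and since counts cover the whole gene they are a weak check of the deletion. The sorted population was checked against marker lists. The 9 double-positive markers, Cd4, Cd8a, Cd8b1 and Rag1 among them, summed to between 12351.5 and 12842 CPM in control libraries and between 14619.6 and 16309.7 CPM in KANSL1-deficient libraries, and 3 of the 9, Rag2 and Dntt among them, passed as higher. Single-positive markers summed to between 268 and 324 CPM in control and between 422 and 585 CPM in KANSL1-deficient libraries, and 1 of 5 tested markers passed as higher, while Zbtb7b, Foxp3 and Il7r stayed under 1 CPM in all 6 libraries. B cell markers summed to between 291 and 406 CPM against 493 and 561 CPM, mostly from Ighm, which passed as higher, with Cd79a and Pax5 under 1 CPM in all 6. Macrophage and dendritic cell markers summed to between 11.9 and 17.7 CPM against 12.4 and 18.5 CPM, and Adgre1, Itgax and Cd74 were under 1 CPM in all 6. Summed levels were 49.2 to 59.2 CPM against 62.5 to 76.6 CPM for double-negative markers and 20.5 to 25.6 CPM against 25.8 to 30.9 CPM for NK and gamma-delta markers. They were 3.57 to 8.22 CPM against 3.21 to 5.21 CPM for erythroid markers and 141 to 207 CPM against 195 to 238 CPM for stromal markers, mostly Pecam1, and no gene of these 4 lists passed. All 8 of 8 cycling-cell markers passed as higher, with sums of 191 to 323 CPM in control and 721 to 853 CPM in KANSL1-deficient libraries. Their part in the results below was not tested. In bulk samples, a change in the share of cells of a type and a change in RNA per cell cannot be told apart.

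Of the 9 genes, 5 rose in KANSL1-deficient thymocytes and 0 fell: Tespa1, Sla, Rasgrp1, Prkcq and Lcp2. The other 4, Lck, Themis, Lat and Zap70, had positive log2 fold changes that did not pass the threshold of an adjusted p under 0.05. Whether the 5 changed more than these 4 was not tested. The median log2 fold change of the 9 genes was 0.56, with a range of 0.19 to 0.85. Over all tested genes 3.85% passed as higher and 2.91% as lower, with a median of -0.02. All 9 genes belonged to the most abundant decile of tested genes, where 13.2% passed as higher, 0.26% passed as lower and the median was 0.20. In 7 of the 9 genes every KANSL1-deficient library lay above every control library, which held for 14.6% of all tested genes and 38.9% of the most abundant decile. With edgeR, 8 genes were higher and 0 lower at an unadjusted p under 0.05. In either direction, 3476 of all 15353 tested genes and 579 of the 1536 in the most abundant decile had such a p. DESeq2 and limma-voom called the same 5 genes and none lower. With 1 library left out, edgeR called 3 without control replicate 1, 1 without control replicate 2, 6 without control replicate 3, 2 without KANSL1-deficient replicate 1 or 2 and 4 without KANSL1-deficient replicate 3. It called 2, Sla and Tespa1, once the trend of change with abundance was removed. In the authors' deposited table the same 5 genes have an adjusted p under 0.05, and 0 of the 9 are marked as significant there.

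**Figure D1:**
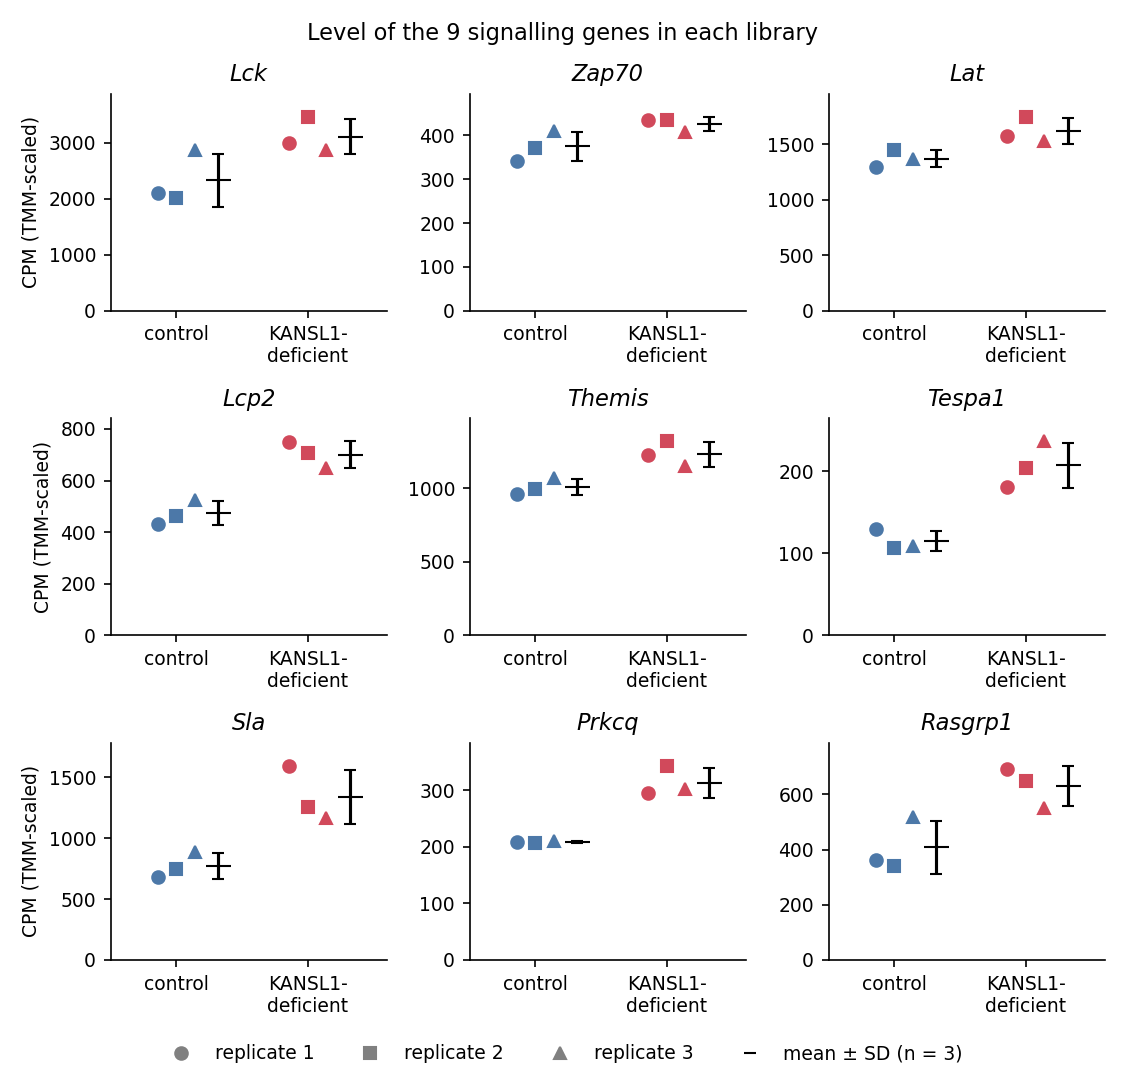
Level of each of the 9 genes in the 6 libraries, as TMM-scaled CPM on axes that start at 0; symbols are replicates, and black marks with bars are the mean and SD of 3 mice. In Tespa1, Sla, Prkcq, Rasgrp1, Lcp2, Lat and Themis the 3 KANSL1-deficient libraries lie above the 3 control libraries, while in Lck and Zap70 the groups overlap.

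The promoters of 3 risers are shown beside that of Lat, whose change did not pass, because the risers rose together and the windows show whether they share a few short motifs. RefSeq windows of 300 bases, from 250 before to 50 after a gene's start, matched 7 of the 9 genes, with 11 windows in all. Tespa1 and Sla were not matched. The windows below are printed 5′ to 3′ on the gene's strand, and capitals mark matches on either strand to any of 5 motifs. The motif searched for ETS family factors was CGGAAG. For RUNX family factors, which act throughout T cell development, it was TGTGGT. For E proteins, which are active in double-positive cells, the letters CAGNTG were searched. For TCF1 and LEF1, the factors of the Wnt pathway, the letters were CTTTGA. The TATA box of core promoters was searched as TATAAA. Window coordinates are in GRCm38.p6, while gene positions given further on follow the authors' table (GRCm39).
Lcp2, chr11:34046678-34046977, plus strand: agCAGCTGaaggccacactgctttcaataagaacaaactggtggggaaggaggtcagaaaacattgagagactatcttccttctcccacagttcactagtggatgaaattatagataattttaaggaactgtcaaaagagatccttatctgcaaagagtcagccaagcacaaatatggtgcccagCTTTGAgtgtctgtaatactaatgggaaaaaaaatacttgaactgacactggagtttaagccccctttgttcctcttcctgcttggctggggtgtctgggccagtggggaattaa
Prkcq, chr2:11172132-11172431, plus strand: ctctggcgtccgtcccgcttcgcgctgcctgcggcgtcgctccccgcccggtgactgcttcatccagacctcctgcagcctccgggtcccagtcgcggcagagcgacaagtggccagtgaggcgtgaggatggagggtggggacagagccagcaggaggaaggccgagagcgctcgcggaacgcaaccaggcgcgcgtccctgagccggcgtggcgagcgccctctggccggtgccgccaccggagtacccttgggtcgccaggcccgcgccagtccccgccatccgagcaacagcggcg
Rasgrp1, chr2:117342828-117343127, minus strand: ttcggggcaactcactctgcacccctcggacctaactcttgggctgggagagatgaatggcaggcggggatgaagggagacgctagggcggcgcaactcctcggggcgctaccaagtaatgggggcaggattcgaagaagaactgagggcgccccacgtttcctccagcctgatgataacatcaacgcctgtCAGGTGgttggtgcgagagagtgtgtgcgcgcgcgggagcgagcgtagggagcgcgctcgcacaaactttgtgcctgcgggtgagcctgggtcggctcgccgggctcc
Lat, chr7:126369519-126369818, minus strand: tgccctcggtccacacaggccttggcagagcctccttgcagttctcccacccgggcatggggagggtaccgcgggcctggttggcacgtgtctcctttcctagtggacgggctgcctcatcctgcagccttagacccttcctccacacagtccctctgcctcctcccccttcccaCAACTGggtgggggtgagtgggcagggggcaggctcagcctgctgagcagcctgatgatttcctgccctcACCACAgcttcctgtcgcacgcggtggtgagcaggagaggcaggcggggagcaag
No matches overlapped one another in these windows. Lcp2 held 1 E protein motif, matched on both strands, and 1 TCF1 and LEF1 motif, and Rasgrp1 held 1 E protein motif. Prkcq held none of the 5 motifs, which says only that these letters are not in this window. Lat held 1 E protein motif and 1 RUNX motif. The windows of Lck, Zap70 and Themis, which did not pass either, are not printed. E protein motifs were found in windows of each, and RUNX motifs in those of Lck and Zap70. Zap70 also held a TCF1 and LEF1 motif, and Themis an ETS motif. Among all 32851 windows of the same length, 51.4% held the E protein motif, 16.8% the RUNX motif, 16.0% the TCF1 and LEF1 motif, 16.9% the ETS motif and 13.6% the TATA box. Base composition differed among the 3 risers: G and C made up 43.3% of the Lcp2 window, 63.7% of the Rasgrp1 window and 73.0% of the Prkcq window, against 65.7% for Lat and a median of 52.7% over all windows.

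The kinases Lck and Zap70, which start the cascade, did not pass. Lck (ENSMUSG00000000409, chromosome 4, 129442137 to 129467434) had the highest level per length of the 9 and was read at 2104, 2010.5 and 2875 CPM in control replicates 1 to 3. In the KANSL1-deficient libraries it was read at 3006, 3468 and 2865 CPM. Control replicate 3 lay within the KANSL1-deficient range and just above KANSL1-deficient replicate 3, while control replicates 1 and 2 lay well below it. Its mean went from 2329.5 ± 474 to 3113 ± 315 CPM (SD, n = 3 each), and the log2 fold change was 0.42 ± 0.15 (SE; adjusted p by edgeR = 0.105). Without control replicate 3 it was 0.59 and passed (adjusted p = 0.0324), and with any other library left out the adjusted p was between 0.135 and 0.336. Zap70 (ENSMUSG00000026117, chromosome 1, 36800879 to 36821899) had the smallest difference of the 9. It was read at 343, 372 and 410.4 CPM in control and 436, 435 and 408 CPM in KANSL1-deficient libraries, and KANSL1-deficient replicate 3 lay below control replicate 3. The log2 fold change was 0.19 ± 0.12 (SE), with an adjusted p of 0.386 by the edgeR quasi-likelihood test.

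Of the scaffold pair downstream of Zap70, the adaptor gene Lcp2 rose and the scaffold gene Lat did not pass. Lcp2 (ENSMUSG00000002699, chromosome 11, 33996920 to 34042295) stood at 433, 464 and 524 CPM in control and 749, 705 and 647 CPM in KANSL1-deficient libraries. The groups did not overlap, and control replicate 3 was the nearest to the KANSL1-deficient libraries. Its mean went from 474 ± 46.3 to 700.5 ± 51.1 CPM (SD, n = 3 each), a 1.48-fold difference with a log2 fold change of 0.56 ± 0.12 (SE; adjusted p by edgeR = 0.0187). The call was lost without control replicate 1 (adjusted p = 0.0544), control replicate 2 (0.0750), KANSL1-deficient replicate 1 (0.0897) or KANSL1-deficient replicate 2 (0.0803), where the log2 fold change was between 0.49 and 0.56. Lat (ENSMUSG00000030742, chromosome 7, 125962996 to 125968742) stood at 1295, 1445 and 1371 CPM in control and 1576, 1747 and 1529 CPM in KANSL1-deficient libraries. Its groups did not overlap either, but the gap between control replicate 2 and KANSL1-deficient replicate 3 was smaller than the SD of the KANSL1-deficient group (115 CPM). The log2 fold change was 0.24 ± 0.11 (SE; adjusted p by edgeR = 0.219).

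Of the genes for the T-lineage proteins of positive selection, Tespa1 rose and Themis did not pass. Tespa1 (ENSMUSG00000034833, chromosome 10, 130158739 to 130199980), whose product links the signalling complex to calcium release, had the largest change of the 9. It was read at 129, 106 and 109 CPM in control and 181, 204 and 236 CPM in KANSL1-deficient libraries, so the lowest KANSL1-deficient library was well above the highest control library. The mean went from 115 ± 12.6 to 207 ± 27.7 CPM (SD, n = 3 each), a 1.80-fold difference with a log2 fold change of 0.85 ± 0.14 (SE; adjusted p by edgeR = 0.00686). It was the 1 gene of the 9 that passed with each of the 6 libraries left out in turn, with log2 fold changes between 0.75 and 0.94 and adjusted p between 0.0102 and 0.0427. Themis (ENSMUSG00000049109, chromosome 10, 28544356 to 28759814), whose product acts together with the phosphatase SHP-1, was read at 963, 997 and 1067 CPM in control and 1229.7, 1319.8 and 1149 CPM in KANSL1-deficient libraries. The KANSL1-deficient libraries were all higher, and the lowest of them was close to control replicate 3. The log2 fold change was 0.29 ± 0.11 (SE), and the edgeR quasi-likelihood test gave an adjusted p of 0.138. The opposite-strand gene model Gm47834 overlaps Themis and holds counts equal to 2.24% of those of Themis.

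Sla (ENSMUSG00000022372, chromosome 15, 66652668 to 66703678), the gene for an adaptor that lowers receptor level, rose from 773 ± 106 to 1341 ± 223 CPM (SD, n = 3 each), 1.74-fold. The libraries read 682, 747 and 889 CPM in control and 1594, 1259.9 and 1170.0 CPM in KANSL1-deficient mice. KANSL1-deficient replicate 1 stood highest, and the lowest KANSL1-deficient library was still above control replicate 3. The log2 fold change was 0.80 ± 0.14 (SE; adjusted p by edgeR = 0.0093), and the call was lost without control replicate 2 (0.75, adjusted p = 0.0575) or KANSL1-deficient replicate 1 (0.65, adjusted p = 0.0507). Sla lies within the thyroglobulin gene Tg on the opposite strand, and all counts given to Tg amount to 0.744% of those given to Sla.

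Both genes for effectors of diacylglycerol rose. Prkcq (ENSMUSG00000026778, chromosome 2, 11176919 to 11306033) encodes protein kinase C-theta, which leads to NF-kB and AP-1, and was read at 208, 207 and 211 CPM in control and 294, 342 and 302 CPM in KANSL1-deficient libraries. The controls were nearly equal, and all 3 KANSL1-deficient libraries lay clearly above them. The mean went from 209 ± 1.96 to 313 ± 25.97 CPM (SD, n = 3 each), with a log2 fold change of 0.58 ± 0.12 (SE; adjusted p by edgeR = 0.0146). It did not pass without control replicate 2 (0.56, adjusted p = 0.0579) or KANSL1-deficient replicate 2 (0.52, adjusted p = 0.0818). Rasgrp1 (ENSMUSG00000027347, chromosome 2, 117110474 to 117173482) encodes the exchange factor that opens the Ras and ERK branch in thymocytes. Its libraries read 363, 341 and 518 CPM in control and 693, 647 and 552 CPM in KANSL1-deficient mice. Control replicate 3 came close to KANSL1-deficient replicate 3, and the other controls were well below. The log2 fold change of 0.63 ± 0.16 (SE; adjusted p by edgeR = 0.0393) was the least secure of the 5 calls: it passed without control replicate 3 (0.83, adjusted p = 0.0165) and with none of the other 5 libraries left out (0.50 to 0.72, adjusted p between 0.0532 and 0.153).

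**Figure D2:**
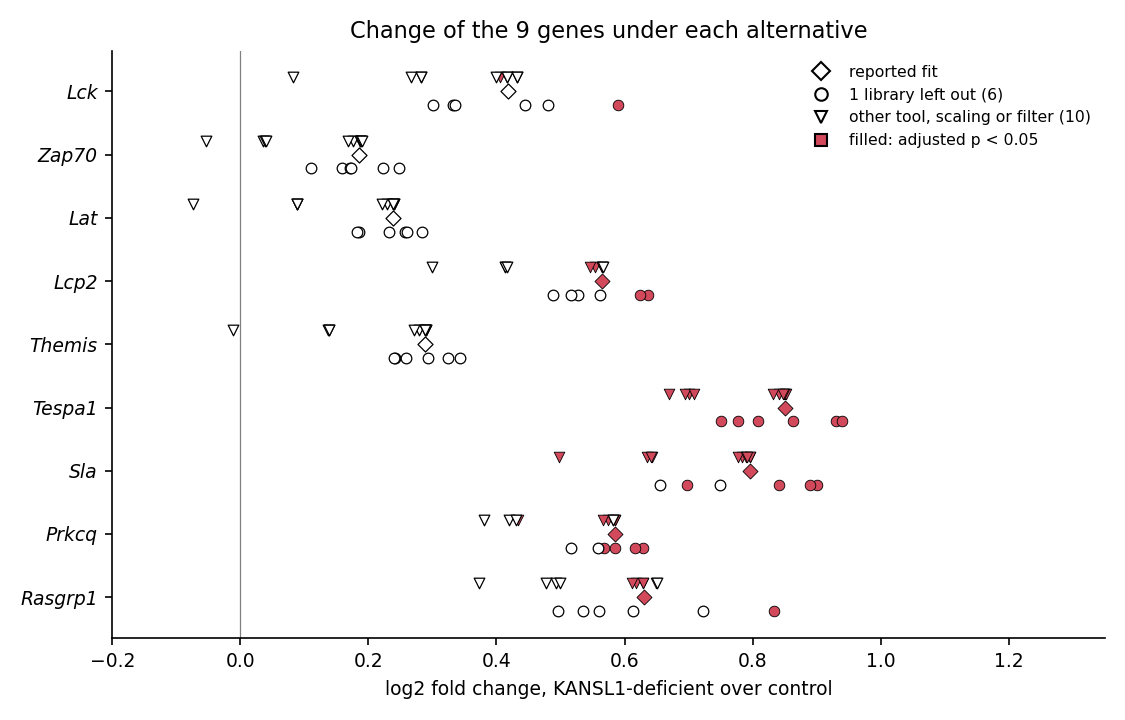
Log2 fold change (KANSL1-deficient over control) of each of the 9 genes in the reported fit (diamond), with 1 of the 6 libraries left out (circles) and under 10 other tools, scalings or filters (triangles); filled symbols have an adjusted p under 0.05. Tespa1 is filled throughout, Sla in 14 of its 16 alternatives, and Zap70, Lat and Themis in none.

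The 9 genes shared a pattern across libraries within the groups. Control replicate 3 was the highest control for 7 of the 9 genes, the exceptions being Lat and Tespa1. KANSL1-deficient replicate 3 was the lowest of its group for 7 genes, with Prkcq and Tespa1 as the exceptions. Tespa1 was the 1 gene whose level was highest in KANSL1-deficient replicate 3, and its control order differed too, with control replicate 1 the highest. Averaged over the 9 genes, log2 CPM relative to the mean of all 6 libraries was -0.33, -0.32 and -0.12 in the controls, against 0.28, 0.31 and 0.18 in the KANSL1-deficient libraries. Together the 9 genes took 0.696%, 0.692% and 0.840% of all counts in the controls and 0.908%, 0.957% and 0.859% in the KANSL1-deficient libraries. On this share, which uses no scaling factor, control replicate 3 and KANSL1-deficient replicate 3 came close without crossing.

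Ratios within a library, which no scaling factor touches, set each gene beside Lck. The log2 ratio of Tespa1 counts to Lck counts was -4.02, -4.24 and -4.72 in the controls, against -4.05, -4.09 and -3.60 in the KANSL1-deficient libraries, a difference of means of 0.42. Control replicate 1 overlapped the KANSL1-deficient libraries in this ratio. For Sla the log2 ratio to Lck was -1.62, -1.43 and -1.69 in control and -0.92, -1.46 and -1.29 in KANSL1-deficient libraries, a difference of 0.36. There KANSL1-deficient replicate 2 lay just below control replicate 2. Rasgrp1, by contrast, kept -2.54, -2.56 and -2.47 in control against -2.12, -2.42 and -2.38 in KANSL1-deficient libraries, without overlap and with a difference of 0.22. Lcp2 and Prkcq, which also rose, had ratios to Lck that differed by means of 0.13 and 0.15, with overlapping libraries in both. Ratios of Zap70, Lat and Themis to Lck were lower in the KANSL1-deficient group, by means of -0.24, -0.19 and -0.14, with overlapping libraries in each. These ratios were not tested against a threshold. All of them share the Lck counts, which among the controls were highest in control replicate 3.

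Per length of gene model, on the scale of the authors' FPKM values, the 9 genes spanned a wide range, and their order differed between the groups. In control libraries the mean FPKM was 837 ± 173 for Lck, 521 ± 20.2 for Lat, 132 ± 11.5 for Zap70, 112 ± 10.7 for Lcp2 and 90.8 ± 4.72 for Themis (SD, n = 3 each). It was 88.5 ± 12.0 for Sla, 76.6 ± 18.4 for Rasgrp1, 31.0 ± 0.649 for Prkcq and 19.2 ± 2.39 for Tespa1. Zap70 and Lcp2 did not differ beyond their spread, nor did Themis and Sla, or Sla and Rasgrp1. All other neighbours in the control order were separated. In KANSL1-deficient libraries Lcp2 (149 ± 7.80 FPKM) and Sla (138 ± 20.4 FPKM) stood above Zap70 (135 ± 2.62 FPKM), although the 3 ranges overlapped from one neighbour to the next. Rasgrp1 (107 ± 10.02 FPKM) stood above Themis (100.005 ± 5.95 FPKM), again with overlap. Lck, Lat, Prkcq and Tespa1 kept their places. FPKM values carry no TMM scaling, and each gene's group difference was smaller on that scale than in TMM-scaled CPM.

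**Figure D3:**
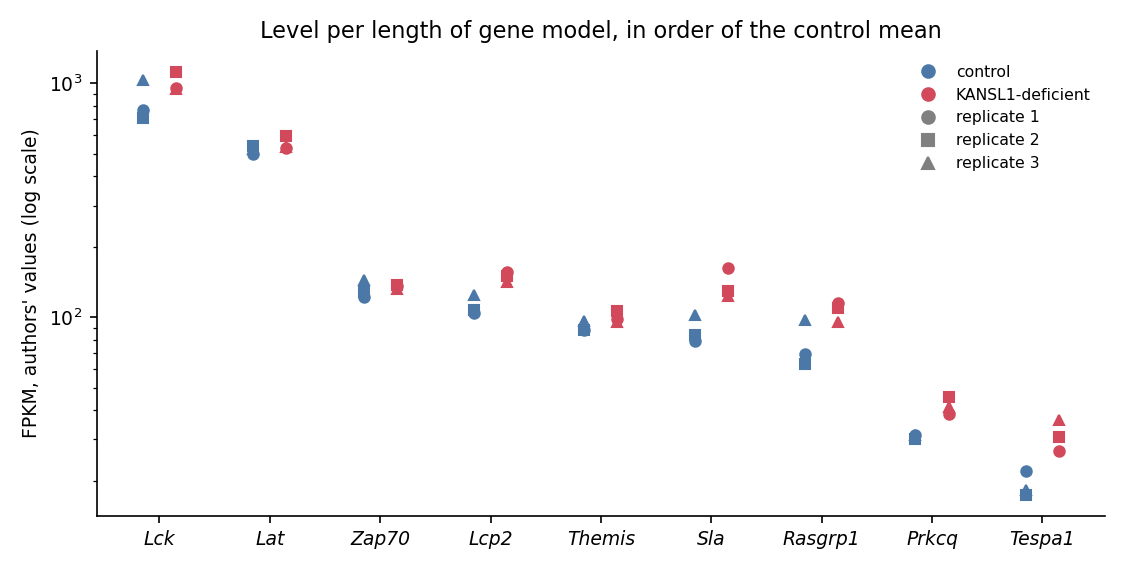
Level of the 9 genes per length of gene model (the authors' FPKM, log axis) in each control (blue) and KANSL1-deficient (red) library, ordered by the control mean. Lck and Lat lie far above the rest, Prkcq and Tespa1 at the bottom, and the 5 genes between them change order between the groups.

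The genes whose profile over the 6 libraries was nearest to the mean profile of the 5 risers were Apaf1, Il16, Arl6ip1, Mgat1 and Slamf1, out of 7784 protein-coding genes with a mean of at least 10 CPM. Likeness was the root-mean-square difference of centred log2 CPM, which was 0.040 for Apaf1, the adaptor of the apoptosome, and 0.048 for Il16, a cytokine precursor. For Arl6ip1, Mgat1 and the receptor gene Slamf1 it was 0.055, 0.056 and 0.059. Their log2 fold changes, which the choice of profile fixed, lay between 0.63 and 0.73.

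Changes in the rest of the pathway were read from a list of 77 other genes of proximal signalling, of which 74 were tested. Of these, 9 rose and 1 fell, and the median was 0.21, near the 0.20 of the most abundant decile. The log2 fold change was positive for 60 of the 74 (81.1%), against 48.2% of all tested genes and 80.6% of the most abundant decile. The share that rose, 12.2%, lay above the 3.85% of all tested genes and below the 13.2% of the most abundant decile, to which 30 of the 74 belonged. With 1 library left out, the number that rose was 1 without control replicate 1 (Cbl), 0 without control replicate 2, 6 without control replicate 3, 0 without KANSL1-deficient replicates 1 or 2 and 5 without KANSL1-deficient replicate 3 (Ptpn22, Sh2d2a, Vav1, Itch and Cd5). At an unadjusted p under 0.05, 15 to 23 genes were higher in those 6 edgeR fits. In the reported fit 23 of the 74 had such a p in either direction. So had 3476 of all 15353 tested genes and 579 of the 1536 in the most abundant decile. DESeq2 called 17 as higher and limma-voom 11, while edgeR called 1 (Ptpn22) with scaling by library totals and 0 with the abundance trend removed (12 at an unadjusted p under 0.05).

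In the list of 12 kinases, phosphatases and the kinase activator Unc119, 2 genes rose, both phosphatase genes, and the median log2 fold change was 0.22. Ptpn22, which acts on Lck and Zap70, was read at 237, 233 and 284 CPM in control and 396, 412 and 340.2 CPM in KANSL1-deficient libraries, with a log2 fold change of 0.61 ± 0.13 (SE; adjusted p by edgeR = 0.0196). Ptpn6, the gene for SHP-1, was read at 142, 137 and 168 CPM and 179.8, 274 and 219 CPM, with a log2 fold change of 0.59 ± 0.16 and an adjusted p of 0.0493 by the same edgeR test. The groups did not overlap in either gene, and KANSL1-deficient replicate 2 was the highest for both. Both were named for their small p, which favours genes without overlap. Every KANSL1-deficient library lay above every control library for 27 of the 74 listed genes. That held for 14.6% of all tested genes and 38.9% of the most abundant decile. With any 1 library left out, Ptpn6 did not pass (adjusted p between 0.0508 and 0.204), and Ptpn22 passed without control replicate 3 or KANSL1-deficient replicate 3 and in none of the other 4 fits (adjusted p between 0.0255 and 0.0958 over all 6).

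Of 19 tested adaptors and exchange factors, 3 rose, with a median of 0.23. Vav1, the exchange factor that binds SLP-76, was read at 378, 405 and 494 CPM in control and 641, 709 and 576 CPM in KANSL1-deficient libraries (log2 fold change 0.59 ± 0.13, SE). Sh2d2a, which encodes an adaptor that binds Lck, had a log2 fold change of 0.50 ± 0.11 (SE), and Nck2, whose product binds CD3-epsilon and SLP-76, one of 0.48 ± 0.11 (SE). Adjusted p was 0.0241, 0.0234 and 0.0268 for the 3 genes by the edgeR quasi-likelihood test. None of these 3, named for their small p, had overlapping groups. Of the 19 tested genes, 8 had every KANSL1-deficient library above every control library, as had 38.9% of the most abundant decile. With 1 library left out, Vav1 and Sh2d2a each passed in 2 of 6 fits (adjusted p up to 0.116 and 0.108) and Nck2 in 0 (0.0569 to 0.117).

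In the list of 18 brakes on the receptor, 2 rose and 1 fell, and the median was 0.31. The log2 fold change was positive for 16 (88.9%), against 48.2% of all tested genes and 80.6% of the most abundant decile. The number that rose was 8 with DESeq2, 7 with at least 5 CPM in 3 libraries, 6 with no filter, 4 with limma-voom and 0 with library totals, either FPKM fit or the abundance trend removed, where 2 to 4 were higher at an unadjusted p under 0.05. With edgeR it was 1 without control replicate 1, 3 without control replicate 3, 2 without KANSL1-deficient replicate 3 and 0 with any of the other 3 libraries left out (6 to 8 unadjusted). Dok1, an adaptor that recruits the Ras inhibitor RasGAP, fell and had the largest change of any listed gene. It was read at 42.6, 43.5 and 46.1 CPM in control and 17.9, 19.8 and 16.9 CPM in KANSL1-deficient libraries, so each group was tight and far from the other. Its mean went from 44.1 ± 1.81 to 18.2 ± 1.48 CPM (SD, n = 3 each), with a log2 fold change of -1.28 ± 0.17 (SE; adjusted p by edgeR = 0.00388). It passed with each library left out in turn, with log2 fold changes between -1.34 and -1.22. Itch, a ubiquitin ligase gene, and Cd5, which encodes a surface receptor that tunes receptor signals in thymocytes, rose with log2 fold changes of 0.61 ± 0.14 and 0.56 ± 0.15 (SE; edgeR adjusted p = 0.0243 and 0.0421). Each of these risers passed in 2 of the 6 fits with a library left out, without control replicate 3 and without KANSL1-deficient replicate 3, with adjusted p up to 0.110 for Itch and 0.175 for Cd5. Cbl, the partner of SLAP, was singled out after its values were seen: its log2 fold change of 0.45 ± 0.14 (SE) did not pass in the reported edgeR fit (adjusted p = 0.0689). It passed in edgeR fits with no filter, with at least 5 CPM in 3 libraries and without control replicate 1, and with DESeq2 and limma-voom. Cbl did not pass in any other alternative, among them library totals, either FPKM fit, the replicate block and the abundance trend removed. Nor did it pass with any library other than control replicate 1 left out.

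Around the second messengers 2 of 11 genes rose, Plcg1 among them, with a median of 0.13. Plcg1, the phospholipase that Lat recruits, went from 109 ± 7.39 to 157 ± 6.68 CPM (SD, n = 3 each). Its log2 fold change was 0.52 ± 0.12 (SE; adjusted p by edgeR = 0.0292), and it did not pass with any 1 library left out (adjusted p 0.0507 to 0.121). Zhx3 overlaps Plcg1 on the opposite strand with counts equal to 58.4% of those of Plcg1, and the sources used here do not say whether strand was used in counting. Of 14 tested Ras and ERK genes, 0 passed with edgeR, 2 had an unadjusted p under 0.05, DESeq2 called 1 (Rasgrp2) and limma-voom 0. Rasgrp2, a relative of Rasgrp1, had the smallest p of that list, with 113, 122 and 128 CPM in control and 152, 159 and 156 CPM in KANSL1-deficient libraries and a log2 fold change of 0.36 ± 0.12 (SE; edgeR adjusted p = 0.0955).

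**Figure D4:**
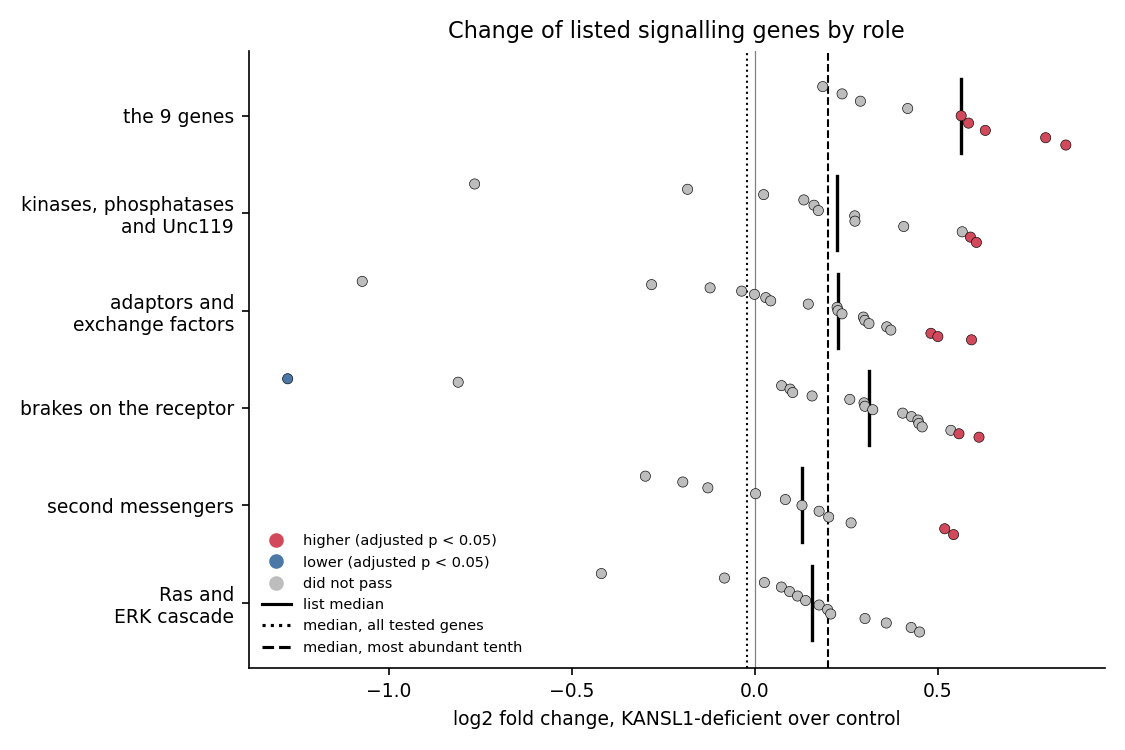
Log2 fold change (KANSL1-deficient over control) of the 9 genes and of 74 other tested signalling genes in 5 lists; red and blue points passed as higher or lower, bars are list medians, and dotted and dashed lines are the medians of all tested genes and of the most abundant decile. The median of the 9 genes lies at 0.56, those of the lists lie between 0.13 and 0.31, and Dok1 is the blue point at -1.28.

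The change of a gene varied with its level, and the 9 genes lie at the abundant end. After each library's trend on mean log2 CPM was removed, the median log2 fold change of the 9 genes was 0.30, and 6 of the 9 were positive. Tespa1 (0.71, adjusted p = 0.0185) and Sla (0.50, adjusted p = 0.0469) still passed in that edgeR fit. Prkcq (0.38, adjusted p = 0.0749), Rasgrp1 (0.37, 0.183) and Lcp2 (0.30, 0.136) did not. Lck then stood at 0.08, and Themis, Zap70 and Lat at -0.01, -0.05 and -0.07. Scaling by library totals moved the median of all tested genes by -0.15 and left all 9 genes positive, at 0.70 for Tespa1, 0.09 for Lat and 0.04 for Zap70, with Tespa1, Sla, Prkcq and Lcp2 past the threshold.

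**Figure D5:**
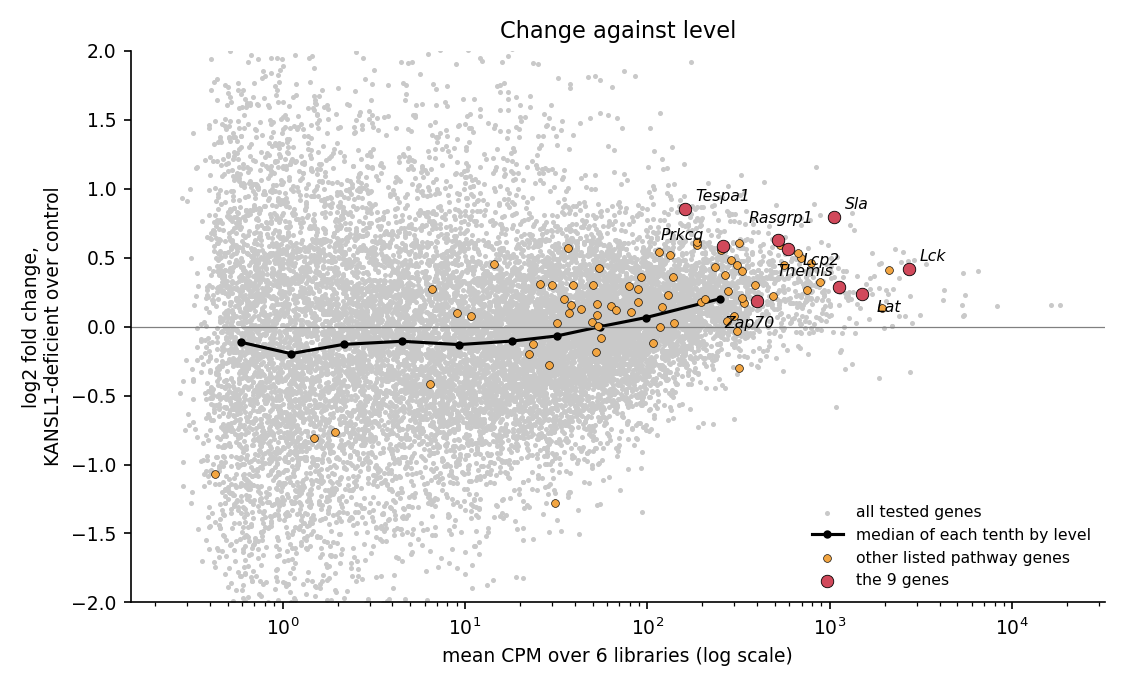
Log2 fold change (KANSL1-deficient over control) against mean CPM (log axis) for all tested genes (grey; 275 lie outside the plotted range), other listed pathway genes (orange) and the 9 genes (red); the black line joins the medians of the deciles of genes by level. The line rises to 0.20 in the most abundant decile, and among the 9 genes Tespa1 and Sla have the largest changes, 0.85 and 0.80.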

How the data were processed

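RNA from sorted double-positive thymocytes was selected on poly-T beads and sequenced for 3 control and 3 KANSL1-deficient mice. The submitters' processing notes name STAR, featureCounts, DESeq2 and the build GRCm39, without versions or the strand setting. The authors deposited raw read counts per gene, FPKM values per gene (the program that gave them is not given), and a comparison of the groups. In that deposited comparison the authors give mean normalized signal, a ratio (fold change), its log2 value, p-values and adjusted p-values, with KANSL1-deficient over control. The deposited counts were tested with edgeR 4.0.16 in R 4.3.3: genes were kept by filterByExpr (minimum count 10, minimum total 15), scaled by TMM, fitted by robust quasi-likelihood without a block, and adjusted by Benjamini-Hochberg over all 15353 genes, with a threshold of 0.05. The standard error is the size of the log2 fold change divided by the square root of F. Printed CPM values are TMM-scaled.

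The 9 genes, the pathway lists and the marker lists were chosen with earlier results of these data known. Of each pathway list, up to 4 genes past the threshold with the smallest p were named, or the 1 with the smallest p where none passed, besides the 9 genes, Kansl1 and the 5 nearest profiles. Cbl was added after its values were seen, and some listed genes are not reported here. Promoter windows came from RefSeq (GRCm38.p6). Alternatives were DESeq2 1.42.0, limma 3.58.1 (voom, and log2(FPKM + 1) or log2(FPKM + 0.1)), other scalings and filters, the replicate number as a block, removal of the trend with abundance (lowess span 0.3), and each library left out. The edgeR test was also run on counts simulated from these libraries, with known changes in genes of at least 100 CPM. It recovered 3 of 67 changes of 1.25-fold, 19 of 67 of 1.5-fold and 65 of 66 of 2-fold. It called 2 of 14566 unchanged genes. A gene that did not pass may therefore still differ between the groups. The labels number the mice, and p-values set the group difference against the spread within the groups of these 6 libraries.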

Additional observations from a re-analysis of the deposited data

How the results depend on the processing

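With 3 libraries a group, the number of calls depended on single libraries. Of the 9 genes, 5 rose in the reported fit, and between 1 and 6 with 1 library left out. That number was 3 without control replicate 1, 1 (Tespa1) without control replicate 2, and 2 without KANSL1-deficient replicate 1 or 2. It was 6 with no filter on low counts, 5 with DESeq2 size factors, a stricter filter, DESeq2 or limma-voom, and 4 with library totals. It was 2, Sla and Tespa1, with limma on log2(FPKM + 1) or log2(FPKM + 0.1), with the replicate block and with the abundance trend removed. None of these fits called any of the 9 genes lower, and at an unadjusted p under 0.05 edgeR had 0 lower. With the trend removed, the log2 fold changes of Zap70 (-0.054), Lat (-0.073) and Themis (-0.011) turned negative. Of the other signalling genes, 9 rose, and between 0 and 6 with 1 library left out. That number was 14 with no filter and with at least 5 CPM in 3 libraries, 17 with DESeq2 and 1 with library totals. It was 0 with either FPKM fit (11 each at an unadjusted p under 0.05), with the replicate block (20 unadjusted) and with the trend removed (12 unadjusted). Dok1 was the 1 gene called lower in all 16 alternatives. The cause of these shifts was not tested.

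Same-numbered libraries did not deviate together (correlations of -0.05, -0.02 and -0.10), so the numbers were not taken to pair the mice. The replicate block lowered the calls over all genes from 1038 to 406. The share of calls that were higher was 56.9% in the reported fit and 27.7% with library totals.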
